A study of Mus musculus with 74 samples.

Results

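The distribution of histone H3 lysine 9 trimethylation (H3K9me3) in 2-cell embryos obtained through somatic cell nuclear transfer (SCNT) was compared with that in fertilized zygotes at the late pronuclear stage PN5. The comparison took the peaks of the NT-2cell and PN5 lists on the 19 autosomes and read them per gene, per promoter and per 1-kb window. Its members were 8 of the 74 libraries of the series, all of them H3K9me3 precipitates, and 232669 of the 1451274 autosomal peaks in the 10 lists of the series. The PN5 list was the only fertilized list used here, and its covered autosomal length lay close to that of the 2-cell list.

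H3K9me3 was profiled by ultra-low-input native chromatin immunoprecipitation, in which chromatin of a small number of cells is cut with micrococcal nuclease and precipitated without cross-linking. Peaks were called by the authors on the merged libraries of a group, against the input chromatin of that group. The NT-2cell list pooled 6 precipitated libraries and 2 inputs, and the Fertilized-PN5 list pooled 2 precipitated libraries and 2 inputs, with the same Active Motif antibody for all precipitates. No agent or knockdown was given to either group in the labels. SCNT embryos were activated with strontium chloride and cytochalasin B by the methods, a step not described for fertilized zygotes.

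By the methods, SCNT embryos carried the nucleus of a cumulus cell (CC) in an enucleated B6D2F1 oocyte, and fertilized zygotes came from C57BL/6j females mated with C57BL/6j males, with females of both kinds aged 8 to 10 weeks. Cumulus cells are ovarian follicle cells and thus female, whereas fertilized zygotes can be of either sex, so only autosomes were compared. Stage, mode of reproduction, activation treatment and the study that generated the libraries all differed between the groups. The PN5 libraries came from an earlier study, by the methods. Strain differed as well if that cross gave the earlier PN5 libraries, which the methods do not state. The parts of all these in any difference cannot be told apart. Each group had 1 pooled list, so no difference carries a replicate error and none was tested. Where a list has no peak, the mark stayed under the threshold of the peak caller and need not have been lacking.

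H3K9me3 is laid down by methyltransferases such as SETDB1 and the SUV39H enzymes, is read by HP1 proteins, and marks constitutive and facultative heterochromatin, including many transposable elements and silent gene families. In mammalian zygotes the mark inherited from the gametes is reorganised after fertilization. In SCNT embryos the donor nucleus brings the H3K9me3 of a differentiated cell, and regions that keep it can resist the activation of the embryonic genome.

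Simple repeats of a different motif stood among the 5 peaks of highest fold enrichment over input that touched no peak of the other list, and the sequences of 4 such repeat peaks are shown, chosen after their sequence was seen. Positions are those of the mouse build GRCm38 (mm10), the plus strand is printed 5′ to 3′, and capitals mark runs of at least 3 units of TA in the 2-cell peaks and of TCTGCC in the PN5 peak. The 3 highest 2-cell peaks lay at chr9:18460244-18460428 within an intron of Zfp558 (overlapping the predicted microRNA gene Gm22854), at chr9:5117155-5117331 in intergenic sequence, and at chr1:189700765-189700928 in intergenic sequence. The fourth and the fifth 2-cell peaks lay at Ftl1 and Dppa3 and are described with the promoters. The PN5 peak shown was the fourth of its ranking (the highest, with a fold of 8.35, lay in an intron of Cdh23), at chr14:27528260-27528405 in intergenic sequence.
NT-2cell peak 1: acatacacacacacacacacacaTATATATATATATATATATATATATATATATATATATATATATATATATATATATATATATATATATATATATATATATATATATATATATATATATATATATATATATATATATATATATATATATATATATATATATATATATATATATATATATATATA
NT-2cell peak 2: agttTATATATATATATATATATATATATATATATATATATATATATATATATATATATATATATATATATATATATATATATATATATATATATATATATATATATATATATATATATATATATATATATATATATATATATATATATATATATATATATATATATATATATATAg
NT-2cell peak 3: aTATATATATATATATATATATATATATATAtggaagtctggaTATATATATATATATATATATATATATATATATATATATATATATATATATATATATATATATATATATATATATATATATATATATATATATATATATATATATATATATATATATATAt
PN5 peak 4: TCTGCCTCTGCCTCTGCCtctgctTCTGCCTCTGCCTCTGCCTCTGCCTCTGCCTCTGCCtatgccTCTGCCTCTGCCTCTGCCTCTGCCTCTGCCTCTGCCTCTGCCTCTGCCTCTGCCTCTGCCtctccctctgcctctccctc

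In the 2-cell list these 3 TA repeats had folds of 68.1, 56.0 and 38.9, far above the median peak fold of 3.10. TA runs took up 87.6%, 97.2% and 91.5% of their bases, and GC content was 5.41%, 1.13% and 3.66%. None of the 3 was covered in CC, at 6 or 14 h after activation, or in PN5, but each was covered in full in the morula and to at least 89.2% at the 8-cell stage. The PN5 peak had a fold of 6.48 against a median of 2.84, a GC content of 65.1% and TCTGCC runs over 78.1% of its bases. It was covered in no other list.

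TA runs were seldom marked in either list, whereas PN5 peaks touched a larger share of TCTGCC runs. Of 14323 autosomal TA runs of at least 20 units, 2-cell peaks touched 1.22% and PN5 peaks 1.51%. TA runs lay in 0.245% of the 1-kb windows marked in 2-cell only and 0.291% of those in PN5 only, against 0.616% of all windows. Of the 20 peaks of highest fold, 4 held such a run in the 2-cell list and none in PN5, compared with 12 in the morula and 7 in 8-cell embryos. Of 1653 runs of at least 5 units of TCTGCC or, on the other strand, GGCAGA, 2-cell peaks touched 27.4% and PN5 peaks 38.3%, against 20.9% in CC and 57.0% at 6 h. TCTGCC runs lay in 0.102% of the windows marked in 2-cell only and 0.232% of those in PN5 only, against 0.0636% of all windows. Such a run was held by 6 of the 20 highest PN5 peaks and by none of the 20 highest 2-cell peaks.

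The 2 lists were of near-equal length and differed in where that length lay. The 2-cell list held 105358 autosomal peaks over 122.7 Mb, or 5.12% of the assembled autosomes, and the PN5 list 127311 peaks over 129 Mb, or 5.39%, a ratio of 0.951. Both lists covered 48.9 Mb, which was 39.9% of the 2-cell length and 37.9% of the PN5 length. The Jaccard index (shared over combined length) was 0.241, and by autosome it lay between 0.218 and 0.266 (0.243 ± 0.0142, SD over 19 autosomes, which are not replicates). The ratio of lengths ranged more widely, from 0.686 on chromosome 17 to 1.21 on chromosome 5, and the 2-cell list was the longer on 5 autosomes (4, 5, 7, 12 and 13).

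By the Jaccard index the SCNT list nearest to PN5 was the 2-cell list, and by covered bases it was the longer 14 h list, which covered 48.4% of the PN5 length. The Jaccard index with PN5 was 0.136 for CC, 0.173 at 6 h, 0.228 at 14 h, 0.241 for 2-cell, 0.205 for 4-cell, and 0.172 to 0.184 from the 8-cell stage to the ICM and TE of the blastocyst. The 2-cell list in turn shared more with every other SCNT list than with PN5, from 0.254 with CC to 0.423 with the 4-cell list. The lists differ in length, which bears on this index.

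Peak width was alike at the median (662 bp in 2-cell, 671 bp in PN5) and differed in the upper tail. The 2-cell list held 3160 peaks of at least 5 kb with 19.2% of its length, against 1449 with 7.35% in PN5, and 363 against 56 peaks of at least 10 kb. Of the 2-cell peaks of at least 5 kb 93.2% touched a PN5 peak, and of the PN5 ones 91.9% touched a 2-cell peak. Any shared base counts as touching, which is more likely for a wider peak, so these shares do not measure how much was shared. For peaks under 500 bp the touching shares were 24.7% and 22.9%. Touching peaks also made up 72.3% of the 2-cell peaks and 57.8% of the PN5 peaks in the highest 10% of fold, and 31.7% and 31.96% in the lowest 10%.

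The lists also differed in how far their peaks lay above the threshold. The median −log10 q was 2.83 in the 2-cell list and 1.93 in PN5, and the lowest values were 1.38 and 1.30. Peaks of −log10 q of at least 2 kept 91.0% of the 2-cell length but 59.2% of the PN5 length, so that the ratio of lengths turned from 0.951 to 1.46.

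Of 2395928 autosomal 1-kb windows, 44389 (1.85%) were marked in both lists, that is, covered to at least 50% by peaks, 66636 (2.78%) in the 2-cell list only and 71108 (2.97%) in PN5 only. The shared windows were 8.29 times the number given by the product of the lists' shares. Of the 111025 windows marked at the 2-cell stage, 39.98% were marked in PN5 (95% Wilson interval 39.7 to 40.3%), and of the 115497 PN5 windows 38.4% were marked at the 2-cell stage (38.2 to 38.7%). The intervals reflect counting error alone, and adjoining windows depend on each other. Some of the windows assigned to a single list lay at the edges of peaks in the other, as 30.02% of the 2-cell-only windows held part of a PN5 peak and 21.7% of the PN5-only windows part of a 2-cell peak.

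The windows marked in a single list differed in whether donor cumulus cells carried the mark there. In CC, 51.5% of the 2-cell-only windows were marked (51.2 to 51.9%), 12.7% of the PN5-only windows (12.5 to 13.0%) and 61.7% of the shared windows, against 8.25% of all windows. The difference was seen on each chromosome, with 38.4 to 65.6% for 2-cell-only windows and 7.51 to 28.2% for PN5-only windows over the 19 autosomes, which did not overlap. The order was the same in later SCNT stages, with 60.8% of the 2-cell-only and 11.9% of the PN5-only windows marked in the 4-cell list and 41.7% and 11.9% in ICM. Both shares were highest in the 14 h list, at 66.7% of the 2-cell-only and 24.9% of the PN5-only windows. As many as 55.9% of the PN5-only windows (39777) were marked in none of the other 8 lists, against 4.79% of the 2-cell-only windows and 1.42% of the shared ones.

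**Figure D1:**
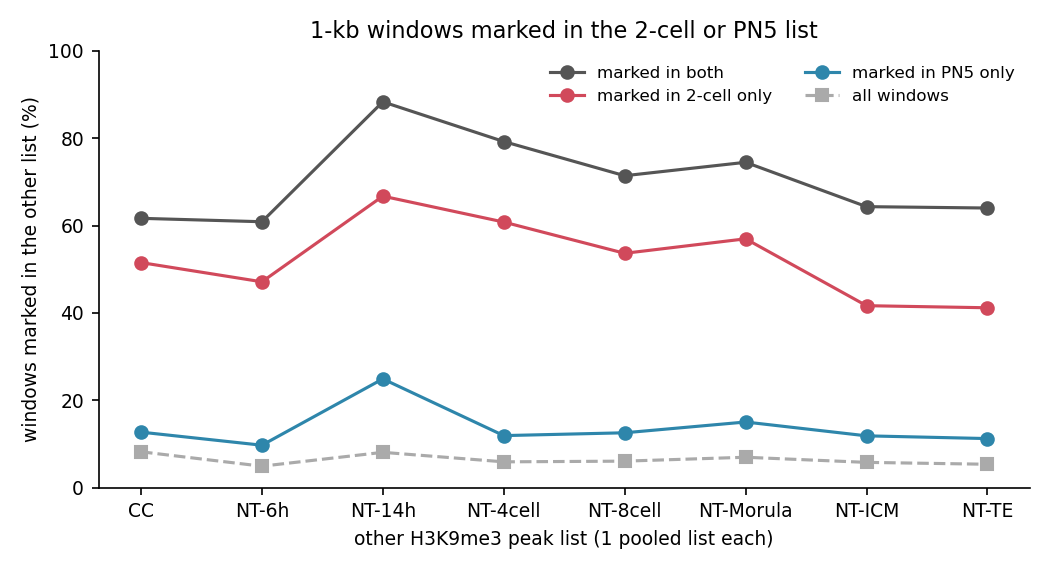
Share of 1-kb autosomal windows (%, y axis) marked in each of the 8 other H3K9me3 lists (x axis, 1 pooled list each), for windows marked in both, in the 2-cell list only, in PN5 only, and for all windows. The line for PN5-only windows lies between 9.75% and 24.9% and stays below those for 2-cell-only windows (41.2% to 66.7%) and shared windows in all 8 lists.

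The 2-cell-only windows fell into 3 groups by the earliest list in which they were marked. The mark was present in CC in 34342 (51.5%), was first seen at 6 or 14 h in 17910 (26.9%), and first seen at the 2-cell stage in 14384 (21.6%). At the 4-cell stage 63.5%, 63.4% and 51.3% of these groups were marked, and in ICM 52.6%, 37.5% and 20.8%. Shared windows that were marked in CC were kept more often, with 82.4% marked in ICM, and consisted mostly of repeats, with a median of 87.4% soft-masked bases.

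The lists differed most in exonic windows. These held any exonic base of a protein-coding gene and lay mostly outside promoters, so they need not consist mostly of exon. In PN5, 5.30% of the exonic windows were marked (12009 windows), against 2.12% (4795 windows) in the 2-cell list, a ratio of 0.399. For promoter windows the shares were 4.14% and 2.26%, for introns 4.10% and 3.09%, and for intergenic windows 5.12% and 5.92%. Of the PN5-marked exonic windows 15.2% were marked at the 2-cell stage, whereas of the PN5-marked intergenic windows 47.4% were. The CC list followed the same line, as it marked 5.02% of the PN5-only exonic windows and 39.3% of the 2-cell-only exonic windows.

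The lower exonic share of the 2-cell list held when the threshold was raised. At −log10 q of at least 2, the ratio of 2-cell to PN5 windows was 1.45 over all windows. For exonic windows it was 0.604 and for promoter windows 0.765, and for intron windows it turned from 0.754 to 1.15. When the 2-cell list was trimmed, by highest −log10 q, to the length of those PN5 peaks (76.4 Mb each), the exonic ratio was 0.381, the promoter ratio 0.491, the intron ratio 0.771 and the intergenic ratio 1.25. The trimmed 2-cell list ended at a −log10 q of 3.15 and the PN5 list at 2, so that their thresholds were unlike. Both alternatives were chosen after seeing the data.

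Repeat content and base composition also separated the lists. In windows of at least 90% soft-masked bases, 13.6% were marked at the 2-cell stage and 9.83% in PN5, and 76.5% of the PN5-marked windows there were also marked at the 2-cell stage. In windows of under 10% masked bases the shares were 3.99% and 5.20%, and 22.5% of the PN5-marked windows were shared. The ratio of 2-cell to PN5 windows was highest at 45 to 50% GC (1.159) and lower towards either end, with 0.437 below 35% GC and 0.672 at 55% GC or more. Repeats are read through reads that map to several copies, and their handling was not tested.

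**Figure D2:**
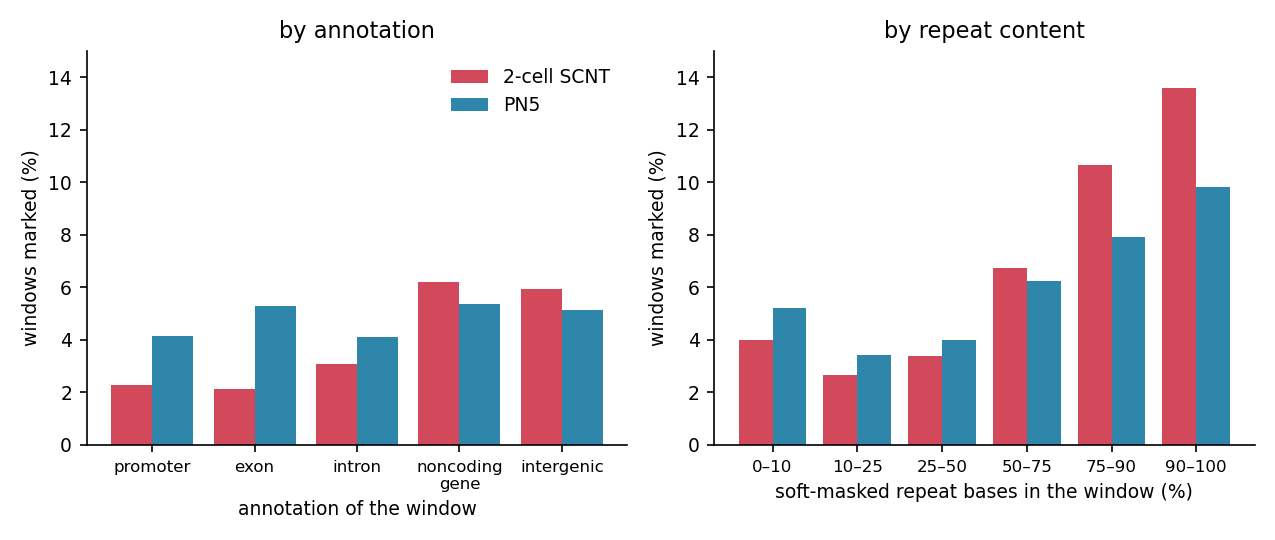
Share of 1-kb autosomal windows marked (%, y axis) in the 2-cell list and in PN5, by annotation of the window (left) and by its share of soft-masked repeat bases (right), with 1 pooled list per bar. Exonic windows are marked at 2.12% and 5.30%, and windows of 90 to 100% masked bases at 13.6% and 9.83%.

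Long runs of adjoining windows showed the same contrast at single places. Runs of at least 10 kb marked in the 2-cell list only numbered 62 and runs marked in PN5 only numbered 2, and for runs of at least 5 kb the numbers were 981 and 407. The longest 2-cell-only run was 24 kb, at chr4:153784001-153808000, with CC coverage of 100% and no PN5 peak. Of the 8 longest, 6 lay on distal chromosome 4, the other two being chr5:113393001-113409000 and chr15:74118001-74133000. Of these 8 runs 7 were intergenic, the other touching a noncoding transcript (Gm13174), and 7 were covered to 100% in CC and the run on chromosome 15 to 58.6%.

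The longest PN5-only runs lay over genes. A run of 10 kb at chr6:48484001-48494000 covered 3569 exonic bases of Sspo, which encodes SCO-spondin, a large secreted protein of the cerebrospinal fluid, and a second of 10 kb at chr12:103954001-103964000 reached into Serpina1e. The next ones, of 9 or 8 kb, lay over Dusp1 and Ergic1, Mtss1, the noncoding Gm49469, Serpina1b, Timeless and Itpr3. CC peaks covered none of the runs at Sspo, Serpina1e, Serpina1b, Timeless and Itpr3, and 3.43%, 26.6% and 18.4% of the runs at Dusp1, Mtss1 and Gm49469. The runs at Timeless, a gene of the replication fork and circadian system, and at Itpr3, an IP3-gated calcium channel, had no 2-cell peak and at most 10.3% coverage in any list but PN5.

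In 1-Mb bins the coverage of the 2-cell list followed that of SCNT and donor lists more than that of PN5. Over 2403 bins the Spearman correlation of coverage was 0.480 between 2-cell and PN5, 0.719 between 2-cell and CC, 0.857 between 2-cell and 14 h, 0.202 between PN5 and CC and 0.306 between PN5 and 14 h. Bins share base composition and repeat content across lists and are not replicates. The bin of largest excess in 2-cell was chr4:153000001-154000000, which holds Ajap1, with 77.6% against 13.3% in PN5 and 90.9% in CC. A bin with Cdh4 and Taf4 (chr2:179000001-180000000) had 52.5% against 8.05%. In the other direction, the bin of largest excess in PN5 was chr14:4000001-5000000, with 20.45% at the 2-cell stage against 40.4%, and chr14:3000001-4000000 had 25.3% against 42.6%. Both were covered widely in CC, to 82.5% and 82.6%. The bins chr12:103000001-104000000 and chr12:104000001-105000000, with the Serpina clusters, had 5.70% and 5.87% in 2-cell against 24.9% and 24.4% in PN5, with 3.93% and 3.81% in CC.

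Gene bodies showed a higher number of marked genes in PN5. Of 20807 autosomal protein-coding genes, 6548 held a 2-cell peak and 11586 a PN5 peak, with 5225 in common. Coverage of the body was at least 25 percentage points higher at the 2-cell stage in 432 genes (2.08%) and at least 25 points higher in PN5 in 871 genes (4.19%). The latter number depended on the threshold, since at −log10 q of at least 2 it was 447, against 439 for the 2-cell stage, and with the trimmed lists the numbers were 515 and 203. The genes higher in the 2-cell list had a median CC coverage of 24.8% and a median 14 h coverage of 47.0%, whereas the medians of the genes higher in PN5 were 0 in both, as over all genes. At least 25% of the body was covered in CC in 213 of the 432 and 112 of the 871 genes, against 1400 of all 20807. No peak in any of the other 8 lists was found in 9 of the former and 166 of the latter.

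The ranking by covered bases favours long genes, whereas the median length was 3494 bp over the 432 genes higher at the 2-cell stage, 6867 bp over the 871 genes higher in PN5 and 17629 bp over all genes. Of the genes with the largest excess of covered bases in the 2-cell list, Cdh13, encoding T-cadherin (ENSMUSG00000031841.19, chr8:118283733-119324921), was covered to 35.3% at the 2-cell stage and 7.36% in PN5, with 47.0% in CC. Cdh4, encoding R-cadherin, had 54.96% against 10.2%, and Ajap1, encoding an adherens junction-associated protein (chr4:153373221-153482811), 92.6% against 18.1%. All 12 genes named by this rule were covered in CC, from 18.3% to 96.7%.

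The 3 Tmem132 genes on chromosome 5, which encode single-pass membrane proteins, were among them. Coverage at the 2-cell stage was 42.9% for Tmem132d, 45.1% for Tmem132c and 45.7% for Tmem132b, against 5.84%, 11.2% and 13.6% in PN5. Their CC coverage was higher than at the 2-cell stage, at 96.7%, 81.3% and 66.2%. Rimbp2, a presynaptic scaffold gene, had 64.5% against 14.1%, Csmd2 56.9% against 20.95%, and Spock1, a proteoglycan gene, 49.1% against 7.07%. Myo18b, an unconventional myosin of muscle, had 73.1% against 17.7%.

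Coverage was higher at the 2-cell stage than in CC for 5 of the 12 genes (Csmd2, Cdh4, Spock1, Zfp536 and Kcnip1). Zfp536, a zinc finger gene of neurons, had 46.6% at the 2-cell stage, 20.2% in CC, 29.0% at 14 h and 10.6% in PN5. Kcnip1, encoding a potassium channel-interacting protein, had 27.4%, 18.3%, 26.3% and 1.92%. In ICM all 12 genes were covered to between 6.72% and 20.8%. At −log10 q of at least 2, 11 of the 12 kept a difference of at least 25 points, the exception being Kcnip1 with 23.3% against 0.732%. With the trimmed lists 4 of the 12 did (Cdh4, Myo18b, Rimbp2 and Ajap1), and Cdh13 had 16.4% against 5.58%.

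The genes with the largest excess of covered bases in PN5 had little or no peak coverage in CC. Gas7 (chr11:67455437-67688990) was covered to 28.3% in PN5, 0.390% at the 2-cell stage and 1.09% in CC. The annotated body of Glp2r, the receptor of an intestinal peptide, overlaps that of Gas7 and had 28.7%, 3.57% and 0.305%. Tnc, encoding the matrix protein tenascin-C, had 27.8% in PN5 and no 2-cell peak, and Lmcd1, a LIM domain gene, 35.5% and none. Sspo was covered to 36.6% in PN5, with no peak at the 2-cell stage or in CC.

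The remaining genes of this group lay in part in clusters. Serpina1b, encoding an alpha-1-antitrypsin of the liver, had 59.9% in PN5 against 10.5%, and Serpina3m 41.3% against 9.36%. Sprr2a2, of the small proline-rich proteins of the epidermal cornified envelope, had 58.8% against 3.95%. Agap3 and Spsb1 had 37.3% and 32.7% against 2.34% and 2.85%, Vstm4 29.0% against 1.39%, and Gm43302 25.7% against 0.255%. Coverage in CC was at most 11.7% for the 12 genes.

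These PN5 values rested partly on peaks close to the threshold. At −log10 q of at least 2, coverage in PN5 was 14.5% for Gas7, 12.2% for Tnc and 9.999% for Lmcd1, while Sspo kept 30.1%, Spsb1 31.5%, Serpina1b 44.5% and Sprr2a2 49.6%. Of the 12 genes, 4 (Serpina1b, Sprr2a2, Sspo and Spsb1) then differed by at least 25 points. With the trimmed lists 5 did, these 4 and Agap3 with 25.7% against 0.

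**Figure D3:**
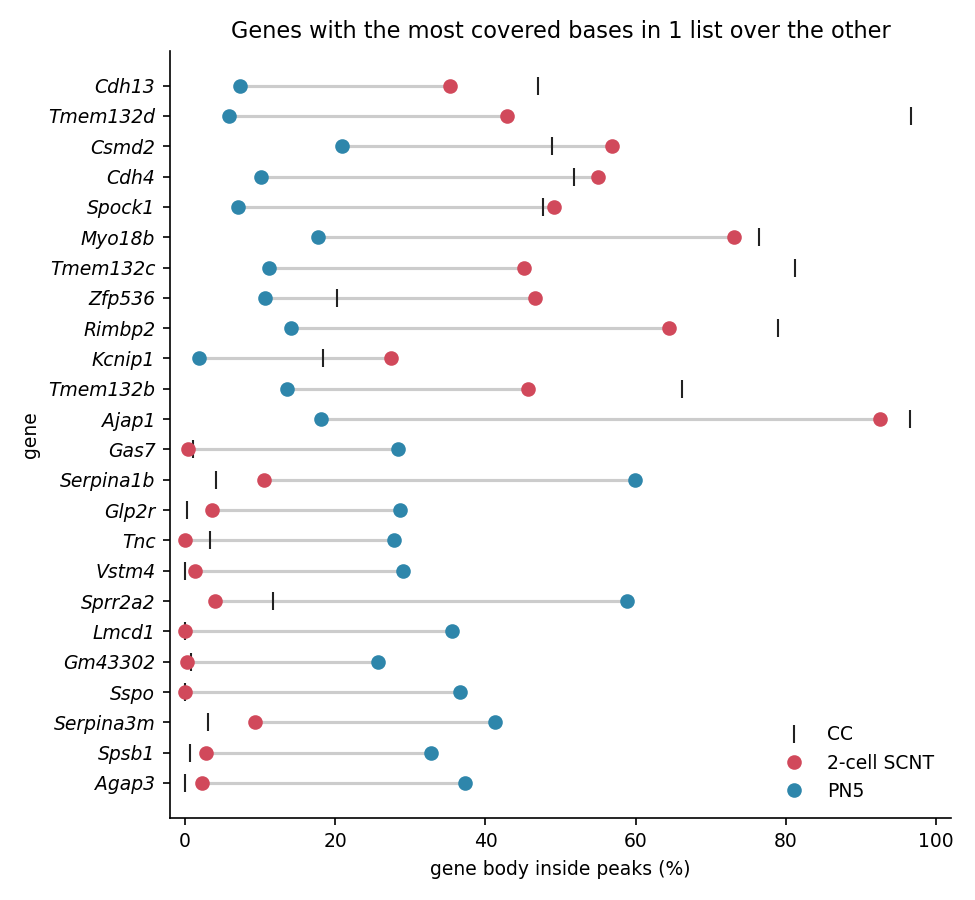
Gene-body coverage by H3K9me3 peaks (%) of the 12 genes with the largest excess of covered bases in the 2-cell list and the 12 with the largest excess in PN5, in the 2-cell, PN5 and CC lists (1 pooled list each). The first 12 genes are covered to 18.3% to 96.7% in CC and the second 12 to at most 11.7%.

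The difference in the Serpina clusters of chromosome 12 extended over whole gene families. Serpina1 genes encode alpha-1-antitrypsins and Serpina3 genes relatives of alpha-1-antichymotrypsin, secreted protease inhibitors expressed mainly in liver. Of 60 Serpin and Speer genes, 23 were at least 25 points higher in PN5 and none in the 2-cell list, against 4.19% and 2.08% of all genes, and the mean coverage was 29.0% in PN5 and 4.38% at the 2-cell stage, with 8.76% in CC. With the higher threshold 19 of the 60 were at least 25 points higher in PN5, and 20 with the trimmed lists. The count came from the Serpina genes of chromosome 12, of which 21 of 23 were higher in PN5, with a mean of 59.1% in PN5, 4.85% at the 2-cell stage and 1.77% in CC. None of the 26 Serpinb genes, intracellular inhibitors encoded on chromosomes 1 and 13, differed by 25 points (mean 2.97% in PN5 and 0.614% at the 2-cell stage). The Speer genes added 2 of 11 and had the higher CC mean, 40.02%, for example Speer4d with 90.1% in CC, 89.8% in PN5 and 3.29% at the 2-cell stage.

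Within the clusters, Serpina1a to Serpina1e and 10 Serpina3 genes were each covered more in PN5 than at the 2-cell stage. These genes were grouped after their values were seen. Serpina1a, Serpina1c, Serpina1d and Serpina1e had 82.4%, 86.5%, 77.0% and 72.3% in PN5 and 0, 0, 0 and 1.32% at the 2-cell stage. Serpina3g was covered in full in PN5 and by no 2-cell peak, Serpina3c to 78.1% and Serpina3n to 59.9%, both with none at the 2-cell stage. Over all 15 genes coverage lay between 41.3% and 100% in PN5 and between 0 and 10.5% at the 2-cell stage. With genes grouped in this way, separate ranges carry no weight.

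Coverage of the Serpina genes was likewise low in the other SCNT lists before the 4-cell stage. CC covered 13 of the 15 not at all, the exceptions being Serpina1b (4.11%) and Serpina3m (3.12%), and at 14 h the highest value was 8.47%. At the 4-cell stage Serpina3j and Serpina3k reached 41.0% and 40.5%. The copies lie close in sequence and can share reads, the annotated body of Serpina1b contains Serpina1d, and that of Serpina3m contains Serpina3k.

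The placental gene clusters stood on the other side. The pregnancy-specific glycoproteins (Psg genes, of the Ceacam family) are secreted by placental trophoblast. Of 64 placental genes, 17 were at least 25 points higher in the 2-cell list and 2 in PN5, beside 2.08% and 4.19% of all genes. The mean coverage was 18.3% against 7.39%, with 39.0% in CC. With the higher threshold the numbers were 15 and 1, beside 439 and 447 of all 20807 genes. With the trimmed lists they were 6 and 1, beside 203 and 515.

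The 13 Psg genes on chromosome 7 (grouped after their values were seen) were covered to between 28.8% and 85.1% at the 2-cell stage and between 0 and 34.4% in PN5. Psg17 had 85.1% at the 2-cell stage and 8.53% in PN5, Psg22 76.7% and 0, Psg21 54.6% and 0, and Psg19 73.1% and 12.1%. In CC, Psg17 had the lowest coverage of the 13 with 16.7%, followed by 39.9% for Psg16 and 44.4% for Psg19, against 82.1% for Psg22 and 100% for Psg18, Psg26, Psg28 and Psg29. Ceacam3, in the same region, had 68.3% at the 2-cell stage and no PN5 peak. Reads can be shared among Psg copies.

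Immunoglobulin variable segments, which are rearranged and expressed in B cells, showed a similar contrast. Of 218 segments 41 were at least 25 points higher at the 2-cell stage and 7 in PN5, beside 2.08% and 4.19% of all genes, with mean coverage of 15.004% and 3.71%, and 41.9% in CC. At the higher threshold the counts were 29 and 3, and with the trimmed lists 15 and 4. Ighv1-39, Ighv1-59, Ighv1-7 and Ighv14-2 were covered in full at the 2-cell stage and in CC and by no PN5 peak. The segments are short, so that 1 peak fills a segment, and they share reads.

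Hox genes, which encode homeodomain factors of body patterning, differed in their relation to CC. Of 39 Hox genes 7 were at least 25 points higher at the 2-cell stage and none in PN5, beside 2.08% and 4.19% of all genes. Mean coverage was 18.2% against 5.33%. CC coverage was 3.61% at the mean, while the 6 h list had 40.9%, the 14 h list 9.14%, the 4-cell list 38.5% and ICM 0.14%. Hoxa5 had 76.1% at the 2-cell stage and none in PN5, Hoxa4 69.7% and none, Hoxb5 62.2% and none, and Hoxb1 45.6% and 0.519%. Hoxd9 went the other way, with 52.5% at the 2-cell stage and 70.0% in PN5. So did Hoxa9 (28.7% and 35.2%), Hoxd4 (9.73% and 15.6%) and Hoxd1 (0 and 10.4%). Hoxc4, Hoxc6 and Hoxc8 had no peak in either list.

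The Hox contrast did not hold under each threshold. At −log10 q of at least 2, 4 Hox genes were higher at the 2-cell stage and 1 in PN5, and with the trimmed lists 1 and 2. Of the Hox promoters, 18 were marked in the 2-cell list only and 1 in PN5 only, beside 4.26% and 7.12% of all promoters. The numbers were 9 and 2 at the higher threshold and 2 and 2 with the trimmed lists. The 6 h list marked 32 of the 39 Hox promoters, beside 29.9% of all promoters.

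**Figure D4:**
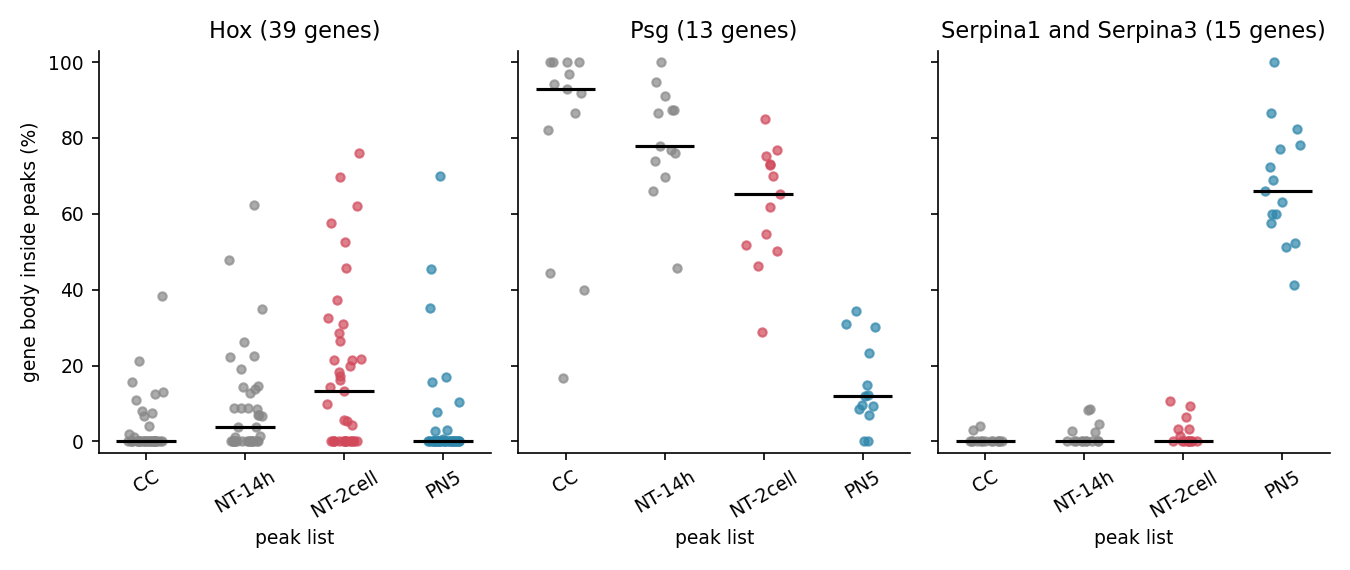
Gene-body coverage by H3K9me3 peaks (%) of the Hox, Psg and Serpina genes in the CC, 14 h, 2-cell and PN5 lists (1 pooled list each), with 1 point per gene and a bar at the median over genes. The 15 Serpina genes have at most 10.5% in the 2-cell list and at least 41.3% in PN5. The 13 Psg genes have at least 28.8% in the 2-cell list and at most 34.4% in PN5. The Serpina and Psg genes were grouped after their values were seen.

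Clustered protocadherins, cell-surface adhesion proteins that give neurons their identity, had 6 of 57 genes at least 25 points higher at the 2-cell stage and none in PN5. Their mean coverage was 14.97% against 4.85%, and 43.0% in CC. At the higher threshold the counts were 6 and 0, and with the trimmed lists 1 and 0, beside 2.08% and 4.19% of all genes in the full lists. Of 1087 olfactory receptor genes, 26 were higher at the 2-cell stage and 17 in PN5 (25 and 6 at the higher threshold, 10 and 6 with the trimmed lists). For vomeronasal receptor genes of the Vmn1r class the counts were 7 and 15 of 207 (8 and 8 at the higher threshold, 3 and 9 with the trimmed lists). Those of the Vmn2r class had 1 and 0 of 119. Zinc finger genes outside distal chromosome 4 had 7 and 15 of 366 genes (7 and 9 at the higher threshold, 5 and 9 with the trimmed lists). Those of distal chromosome 4 had 2 and 0 of 18, with mean coverage of 24.2% at the 2-cell stage, 13.3% in PN5 and 84.4% in CC.

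Imprinted genes, expressed from 1 parental allele, held single genes that differed in full. Of 57 genes 7 were higher at the 2-cell stage and 3 in PN5, beside 2.08% and 4.19% of all genes, with 6 and 1 at the higher threshold and 2 and 1 with the trimmed lists. Cdkn1c, encoding a cell cycle inhibitor (chr7:143458339-143461050), was covered in full at the 2-cell stage, to 93.6% in CC and by no peak in PN5 or at the 4-cell stage. Magel2 had 70.2% against 17.1%, with 86.3% in CC. Nnat and Dio3 had 43.2% and 40.8% at the 2-cell stage and 3.19% and 0 in PN5.

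In the other direction, Mcts2, an imprinted retrogene (chr2:152687035-152687946), had 94.7% in PN5 and no peak in CC or in SCNT embryos up to the 4-cell stage. Rtl1 had 48.2% in PN5 and 1.33% at the 2-cell stage, and Ascl2, a trophoblast factor, 38.3% and 0. Imprinted promoters marked in a single list were more often those of the 2-cell list, 13 against 3, beside 4.26% and 7.12% of all promoters. Those of the 2-cell list included Gnas, H19, Peg10, Sgce and Peg13. With the trimmed lists the counts of imprinted promoters were 5 and 1.

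Lists of oocyte and early embryo genes differed in their coverage. The 5 Zscan4 genes, active at genome activation, had a mean coverage of 0.330% at the 2-cell stage and 0 in PN5, against 87.9% in CC and 37.9% at 14 h. The 7 Obox genes, oocyte-specific homeobox genes, had 17.5% at the 2-cell stage, 3.36% in PN5 and 95.9% in CC. Of their promoters 5 were marked in the 2-cell list only and none in PN5, beside 4.26% and 7.12% of all promoters in a single list. The counts were 5 and 0 at the higher threshold, beside 763 and 706 of all 20807 promoters. With the trimmed lists they were 1 and 0, beside 365 and 788. Of 18 further genes of the 2-cell stage, 9 held a 2-cell peak and 5 a PN5 peak, beside 6548 and 11586 of all 20807 genes. At least 25 points higher at the 2-cell stage were 2, namely Tdpoz3 (95.9% against 0) and Duxf3 (100% against 63.8%), beside 2.08% of all genes. The number was 2 at the higher threshold and 1 with the trimmed lists, beside 439 and 203 of all 20807 genes. Of 15 Prame-like genes none differed by 25 points.

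Among 41 oocyte genes, 22 held a 2-cell peak and 20 a PN5 peak, beside 6548 and 11586 of all 20807 genes. At least 25 points higher at the 2-cell stage were 3 and in PN5 1, beside 2.08% and 4.19% of all genes. At the higher threshold the numbers were 4 and 0, beside 439 and 447 of all 20807 genes. With the trimmed lists they were 3 and 0, beside 203 and 515. Khdc3 and Tle6 lay on opposite sides in the full lists. Both encode parts of the subcortical maternal complex. Khdc3 had 72.4% at the 2-cell stage and none in PN5, and Tle6 47.1% in PN5 and none at the 2-cell stage. Tle6 passed the limit of 25 points neither at the higher threshold nor with the trimmed lists. Of 45 regulators of pluripotency and lineage none differed by 25 points, the largest values being Sox2 with 20.5% at the 2-cell stage and none in PN5 and Mcrs1 with none and 13.3%. Max had no 2-cell peak and 5.96% coverage in PN5.

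The genes of the H3K9me3 machinery had little coverage at the 2-cell stage. Of 34 such genes 25 held a PN5 peak and 7 a 2-cell peak (20 and 4 at the higher threshold), against 11586 and 6548 of all 20807 genes. A long gene is more likely to hold a peak, and their median length was 42187 bp, against 17629 bp over all genes. Mean coverage was 6.69% in PN5 and 0.214% at the 2-cell stage, against 6.33% and 3.53% over all genes. Daxx, a histone H3.3 chaperone gene, was covered to 61.1% in PN5, Chaf1a, a subunit of the chromatin assembly factor CAF-1, to 24.1%, and Kdm4a, an H3K9 demethylase, to 22.7%, with 0, 0.637% and 1.04% at the 2-cell stage. Tet3, the DNA dioxygenase of the zygote, had 17.4% against 0, whereas the coverage of Setdb1 was 4.56% against 0. Of these, Daxx alone differed by 25 points.

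Cumulus cell genes are expressed in the donor cells. Of 27 such genes 6 held a 2-cell peak and 12 a PN5 peak, beside 6548 and 11586 of all 20807 genes. At least 25 points higher in PN5 was 1 gene, Hsd17b1, and none at the 2-cell stage, beside 4.19% and 2.08% of all genes. No member passed that limit in either direction at the higher threshold or with the trimmed lists. Hsd17b1, encoding a steroidogenic enzyme, had 36.9% in PN5 and none at the 2-cell stage. Fshr, the receptor of follicle-stimulating hormone, had 23.0% against 0.460%. Of 138 developmental transcription factor genes, 7 were higher at the 2-cell stage, among them Foxe3 (100% against 0), and 5 in PN5, among them Foxf1 (54.0% against 0) and Sox4 (50.01% against 0). Developmental factors had 7 and 3 at the higher threshold and 2 and 4 with the trimmed lists. Histone genes had 4 of 67 in each direction, but 4 and 0 both at the higher threshold and with the trimmed lists. Germline genes had 3 and 2 of 39, ribosomal protein genes 2 and 3 of 76 and defensin genes 3 and 2 of 64, and at the higher threshold 3 and 0, 2 and 1, and 2 and 0. Over all genes the shares were 2.08% and 4.19% in the full lists, with 439 and 447 of 20807 genes at the higher threshold.

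**Figure D5:**
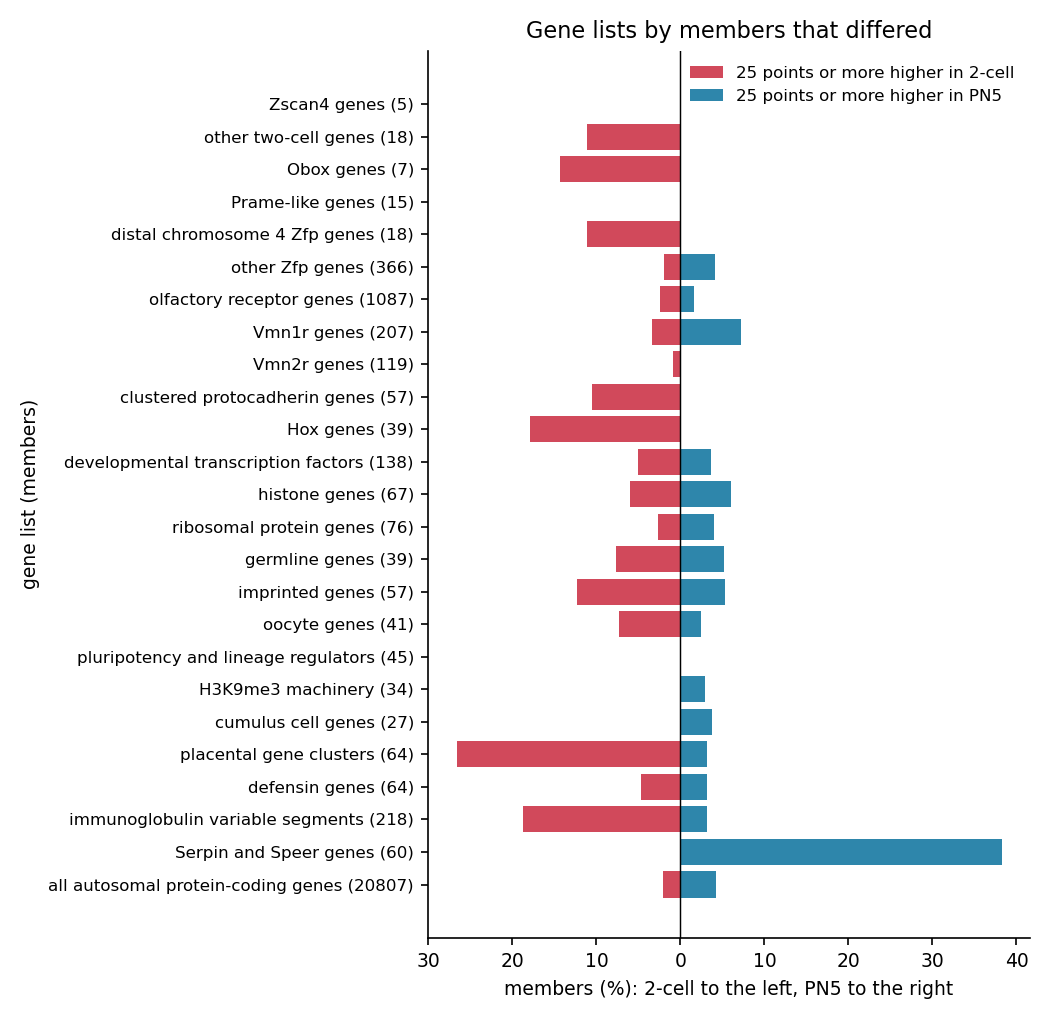
Share of members (%, x axis) whose gene body is covered by at least 25 percentage points more in the 2-cell list or in PN5, for each gene list and for all 20807 autosomal protein-coding genes (432 and 871 genes). Serpin and Speer genes reach 38.3% in PN5 and 0 in the 2-cell list, and placental gene clusters 26.6% in the 2-cell list.

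Promoters, taken as 1 kb to either side of the 5′ end of a gene, were marked in 1330 genes at the 2-cell stage and 1925 in PN5. In the 2-cell list only 887 (4.26%) were marked, in PN5 only 1482 (7.12%), and in both 443. At −log10 q of at least 2 the order turned, with 763 and 706, while with the trimmed lists it was 365 and 788. Of the 2-cell-only promoters 33.6% were marked in CC, of the PN5-only promoters 8.43% and of all promoters 7.83%. In the 6 h list 59.9% and 38.6% were marked, against 29.9% of all promoters.

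Promoters were also classed by CpG, as high-CpG when a 500-bp stretch reached a CpG ratio of 0.75 and 55% GC and as low-CpG when no stretch reached a ratio of 0.48. High-CpG promoters made up 43.1% of the 2-cell-only and 47.9% of the PN5-only promoters, against 49.9% of all, and low-CpG promoters 39.6%, 34.2% and 31.7%. The promoters marked in both lists were poorer in CpG, with 22.3% high-CpG and 56.9% low-CpG. Marked in none of the other 8 lists were 174 of the 2-cell-only and 678 of the PN5-only promoters.

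The sequences of 5 promoters are shown to set promoters of differing CpG content beside their coverage. They come from the RefSeq table for GRCm38.p6, from 250 bases before to 50 after the start of the gene, printed 5′ to 3′ on the strand of the gene with CpG dinucleotides in capitals. Hoxa5 lies at chr6:52204538-52204837 (minus strand), Mcts2 at chr2:152686898-152687197 (plus), Psg17 at chr7:18821542-18821841 (minus), Serpina1d at chr12:103773584-103773883 (minus) and Serpina3n at chr12:104406458-104406757 (plus).
Hoxa5: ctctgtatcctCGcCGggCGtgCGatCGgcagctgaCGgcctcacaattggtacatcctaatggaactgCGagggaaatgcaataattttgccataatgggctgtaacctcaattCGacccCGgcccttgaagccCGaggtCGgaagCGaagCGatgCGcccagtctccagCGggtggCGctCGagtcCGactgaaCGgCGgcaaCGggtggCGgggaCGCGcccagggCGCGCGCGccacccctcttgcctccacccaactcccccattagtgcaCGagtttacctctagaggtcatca
Mcts2: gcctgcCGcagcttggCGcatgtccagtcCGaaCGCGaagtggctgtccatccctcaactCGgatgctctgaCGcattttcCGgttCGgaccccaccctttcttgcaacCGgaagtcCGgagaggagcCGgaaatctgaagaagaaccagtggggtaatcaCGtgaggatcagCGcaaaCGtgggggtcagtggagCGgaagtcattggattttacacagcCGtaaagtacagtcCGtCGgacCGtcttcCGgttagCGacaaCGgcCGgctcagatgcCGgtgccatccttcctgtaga
Psg17: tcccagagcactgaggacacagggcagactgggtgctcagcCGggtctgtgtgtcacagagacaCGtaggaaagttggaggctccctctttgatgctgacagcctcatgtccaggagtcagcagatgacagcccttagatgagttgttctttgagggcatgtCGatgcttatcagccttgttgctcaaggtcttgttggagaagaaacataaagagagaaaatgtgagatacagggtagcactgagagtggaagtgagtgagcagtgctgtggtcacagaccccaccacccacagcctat
Serpina1d: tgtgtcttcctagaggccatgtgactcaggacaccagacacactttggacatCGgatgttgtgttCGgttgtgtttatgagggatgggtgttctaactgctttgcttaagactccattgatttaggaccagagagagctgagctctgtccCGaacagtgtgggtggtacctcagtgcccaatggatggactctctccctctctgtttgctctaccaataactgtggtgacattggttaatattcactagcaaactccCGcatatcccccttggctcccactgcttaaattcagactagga
Serpina3n: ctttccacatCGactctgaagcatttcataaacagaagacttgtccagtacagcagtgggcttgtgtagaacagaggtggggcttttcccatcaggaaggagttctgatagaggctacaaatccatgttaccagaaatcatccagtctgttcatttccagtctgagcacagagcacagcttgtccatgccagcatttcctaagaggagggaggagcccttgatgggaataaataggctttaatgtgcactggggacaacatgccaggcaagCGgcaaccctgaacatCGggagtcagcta

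Of these stretches Hoxa5 held 29 CpG and Mcts2 25, Psg17 and Serpina3n 3 and Serpina1d 4, against a median of 7 over 31396 autosomal promoters. The Hoxa5 stretch was covered to 43.3% at the 2-cell stage, in full in CC and at 6 h, and not in PN5. The Mcts2 stretch was covered in full in PN5 and from the 8-cell stage to ICM and TE, and in no list in between or in CC. The Psg17 stretch was covered in full at the 2-cell stage and not in PN5, and both Serpina stretches were covered in full in PN5 and in none of the other 9 lists.

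The promoter peaks of highest fold in a single list were narrow. In the 2-cell list they lay at Ftl1, a ferritin light chain gene, with a peak of 282 bp and a fold of 14.9, at Dppa3, a maternal factor gene (341 bp, fold 13.6), at Eif5a, a translation factor gene (387 bp, fold 11.0), and at Tmem41b (253 bp, fold 9.32). A peak of 252 bp with a fold of 8.21 marked both Hist1h2ao and Hist1h2bq, neighbouring histone genes. Pfn1, encoding the actin-binding profilin, and Ybx1, encoding an RNA-binding protein, had folds of 8.17 and 7.89. None of these promoter peaks but that of Ybx1 was covered in CC.

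These 2-cell peaks overlapped exons. The peaks at Ftl1, Tmem41b and Pfn1 were exonic over their whole width, and 199 of 341 bases at Dppa3, 286 of 387 at Eif5a, 222 of 252 at the histone genes and 297 of 679 at Ybx1 were exonic. Among 2-cell peaks that touched no PN5 peak, 40 of 300 (13.3%) with a fold of at least 5 were exonic over at least 50% of their width, against 3.07% with a fold under 3. Among such PN5 peaks of a fold of at least 5 it was none of 22. Ftl1, ribosomal protein and histone genes have processed copies or near-identical paralogs, so that reads can be shared, and this was not tested.

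The corresponding PN5 promoter peaks had lower folds. They lay at Spata45 (219 bp, fold 4.37), Gm28557 (fold 4.28), Zfp740 (fold 4.27) and Cntn1, a neuronal adhesion gene (285 bp, fold 4.13). Wider ones lay at Alad, an enzyme of heme synthesis (4992 bp, fold 4.08), at Ccdc61 (1811 bp, fold 3.85), and over the shared start of Palmd and 4930455H04Rik (2120 bp, fold 3.86). None of the 7 peaks was covered in CC. Peaks of the 2-cell list covered 19.6% of the Alad peak, though none of the Alad promoter. Ribosomal protein promoters were marked in the 2-cell list only in 15 of 76 genes and in PN5 only in 4, against 4.26% and 7.12% of all promoters, and with the trimmed lists in 7 and 1.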

How the data were processed

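H3K9me3 peak lists of 10 groups were used as the authors deposited them, 1 list per group, and the report compares those of NT-2cell and Fertilized-PN5. By the study's methods and the submitters' processing notes, the authors trimmed reads with cutadapt 1.16, aligned them to mm10 with BWA, merged the libraries of a group, removed duplicates, drew the same number of reads per group with Picard and called broad peaks over input with MACS2, with a threshold not given in the sources used here. The read depth of single libraries is not in these lists. The deposited fold value is the ratio of precipitate over input, as a mean over the peak, and the deposited −log10 q value comes from the same caller.

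Peaks were intersected with 1-kb windows (at least 50% assembled, marked at 50% covered), with GENCODE vM21 gene bodies and with promoters of 1 kb to either side of the 5′ end on the 19 autosomes of GRCm38. A promoter counted as marked when 50% of its length lay under a peak, or 50% of a peak lay within it. Reads that drop out in repeats, or that fit several copies, shape where peaks can be called. Python 3.11.15, NumPy 2.4.6, pandas 2.3.3, SciPy 1.17.1 and matplotlib 3.10.9 were used, and the overlap code was checked on simulated peaks. Shares carry 95% Wilson intervals. With 1 pooled list per group no test was run.

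Members and the 24 gene lists were chosen with earlier results of these data known. Named were, per direction, the 12 genes with the largest difference in covered bases among those past 25 points, the 8 promoters with the highest fold in 1 list only, the 8 longest runs, the 5 peaks of highest fold and the 5 bins of 1 Mb with the largest difference (not all are described, and 1 peak is not reported here), and per gene list up to 4 members with the largest difference, plus genes the study discusses. Alternatives were a −log10 q of at least 2, a peak width of at least 500 bp, lists of equal length, other limits for windows, genes and promoters, and the sex chromosomes. X, Y and the mitochondrial genome stayed out of the comparison.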

Additional observations from a re-analysis of the deposited data

Results flagged for a closer look

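Peaks on chromosomes outside the comparison were present in both lists. The 2-cell list held 14523 peaks on X, 314 on Y and 6 on the mitochondrial genome. The PN5 list held 4596 peaks on X, 251 on Y and none on the mitochondrial genome. The 5 values above 0 were flagged for being over a limit of 3 counts. Chromosome X was left out by choice, so passing this limit says nothing about its peaks. Cumulus cell donors are female and fertilized zygotes of either sex, and the part of embryo sex in these numbers was not tested. The 2-cell list held more peaks on Y than the PN5 list, and their source was not examined.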

How the results depend on the processing

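No paired analysis was possible because each group had a single peak list made from merged libraries, which also meant that leaving out a replicate could not be tried. Of 57 values recomputed under alternatives, 17 stayed within their limits, 37 moved and 3 turned direction. The length ratio of 0.951 became 1.46 at −log10 q of at least 2, 0.960 with peaks of at least 500 bp and 1.02 with X and Y included, and the ratio of intron windows became 1.15 at that q. The share of 2-cell windows marked in PN5, 39.98%, was 33.2% at the higher q, 39.3% with lists of equal length, 43.3% and 37.1% with windows marked at 25% and 75% covered, and 38.3% with X and Y. The reverse share, 38.4%, was 47.9%, 39.4%, 39.7%, 38.8% and 39.5% in that order, and 46.6% in windows of 45 to 50% GC. The CC share of 2-cell-only windows, 51.5%, was 37.7% with all lists at the length of the shortest, 54.3% and 49.9% at the 25% and 75% limits and 52.7% at 45 to 50% GC, and that of PN5-only windows, 12.7%, was 8.15%, 13.9%, 12.3% and 10.3%. Genes higher at the 2-cell stage numbered 972 and 169 with limits of 10 and 50 points, and those higher in PN5 2887 and 247, with 447 at the higher q. Promoters marked in PN5 only numbered 706 at the higher q. The GC alternative, and the alternatives for annotation classes, Hox and Serpin genes, were chosen after seeing the data. The cause was not tested, other than that higher limits and fewer peaks leave fewer genes to count.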
